A study of Rattus norvegicus with 32 samples.

Results

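Hepatic fatty acid synthesis was followed through 10 genes of 17327 in the count table of this series: the regulators Srebf1 and Mlxipl, the enzymes Acly, Acaca, Acacb, Fasn, Elovl6 and Me1, and Thrsp and Pnpla3, genes of lipogenesis and of the lipid droplet. The genes were picked by symbol as regulators and enzymes of lipogenesis, and all 10 were in the table and passed the filter on low counts. Liver messenger RNA had been sequenced from 32 Charles River Sprague Dawley rats under basal conditions, 4 rats in each of 8 groups. The groups were KO males, WT males, KO females and WT females at 60 days of age and the same combinations at 30 days. KO rats lacked corticosteroid-binding globulin (CBG), the blood carrier of corticosterone, after CRISPR/cas9 editing of Serpina6 (Cbg-/-), and WT rats were Cbg+/+. The sources used here do not state how many founders the KO line had, whether the rats were littermates, or the hour and feeding state at collection.

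In the liver, excess carbohydrate is turned into fatty acids. ATP citrate lyase (Acly) makes cytosolic acetyl-CoA from citrate, acetyl-CoA carboxylase (Acaca in the cytosol, Acacb at mitochondria) makes malonyl-CoA, fatty acid synthase (Fasn) builds palmitate from it, Elovl6 lengthens palmitate, and malic enzyme (Me1) supplies NADPH. Transcription of these genes is driven by SREBP-1c, a product of Srebf1 that responds to insulin and to liver X receptors, and by the carbohydrate-responsive factor ChREBP, the product of Mlxipl. Thrsp (Spot 14) is a lipogenic protein whose transcript responds to thyroid hormone and carbohydrate, and Pnpla3 encodes a lipid droplet protein whose transcript is a target of SREBP-1c in mouse and human. In mouse and human, Srebf1 has an upstream start that gives SREBP-1a and a downstream start that gives SREBP-1c, the main liver form. Counts per gene do not part these starts.

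The sequences before the starts of Srebf1 and of Thrsp and Pnpla3 are shown because the counts cannot tell the starts of Srebf1 apart and because SREBP-1 acts on promoters together with the factors NF-Y and Sp1, known for binding CCAAT and GC boxes. Each is the 250 bases before an annotated start, from RefSeq's promoter table for the rat assembly GRCr8, 5′ to 3′ in the direction of the gene. Capitals mark CCAAT and GGGCGG read on either strand (ATTGG and CCGCCC on the other). The upstream start of Srebf1 lay after chr10:45529165-45529414 and the downstream one after chr10:45519011-45519260, both on the minus strand. Thrsp was at chr1:161138965-161139214 on the minus strand and Pnpla3 at chr7:117173278-117173527 on the plus strand.
Srebf1, upstream start: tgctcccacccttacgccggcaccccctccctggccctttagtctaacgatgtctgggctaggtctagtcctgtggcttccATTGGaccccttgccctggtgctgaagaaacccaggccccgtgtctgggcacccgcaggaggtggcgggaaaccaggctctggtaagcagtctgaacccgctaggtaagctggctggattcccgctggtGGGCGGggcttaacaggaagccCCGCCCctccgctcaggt
Srebf1, downstream start: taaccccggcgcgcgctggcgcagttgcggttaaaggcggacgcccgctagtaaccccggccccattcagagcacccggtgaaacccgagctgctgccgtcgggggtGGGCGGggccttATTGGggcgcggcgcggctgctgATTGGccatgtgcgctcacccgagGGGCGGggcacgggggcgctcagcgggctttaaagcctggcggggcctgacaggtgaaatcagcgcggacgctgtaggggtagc
Thrsp: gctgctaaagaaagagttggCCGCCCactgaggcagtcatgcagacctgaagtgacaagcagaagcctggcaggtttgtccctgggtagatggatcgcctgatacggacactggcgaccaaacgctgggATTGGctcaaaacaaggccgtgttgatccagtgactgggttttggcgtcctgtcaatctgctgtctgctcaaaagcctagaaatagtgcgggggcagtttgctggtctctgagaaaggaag
Pnpla3: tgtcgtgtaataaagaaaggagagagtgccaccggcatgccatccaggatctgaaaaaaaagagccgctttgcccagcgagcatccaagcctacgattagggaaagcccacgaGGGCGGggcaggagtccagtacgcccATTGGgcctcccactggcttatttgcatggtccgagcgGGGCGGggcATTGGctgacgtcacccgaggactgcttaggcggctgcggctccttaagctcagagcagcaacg
The downstream Srebf1 window held 2 CCAAT boxes and 2 GC boxes, and the upstream one 1 and 2. Pnpla3 had 2 of each, and Thrsp had 1 of each. The table held 9 windows for 7 of the 10 genes (Srebf1, Mlxipl, Acly, Acacb, Me1, Thrsp and Pnpla3), and both Mlxipl windows overlapped almost wholly. A CCAAT box stood in 8 of the 9 windows, against 34.0% of 33469 rat windows of this length, and a GC box in 6 of 9, against 30.5%. The E-box CACGTG (5.59% of windows), the sterol element searched as TCACNCCAC (0.974%) and the D-box searched as TTATGNAA (3.28%), each on both strands, matched in 0 of the 9 windows. Matches of CCAAT and GGGCGG overlapped each other in 0 places. A match or its lack describes these letters in this window and says nothing of a factor's binding.

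Between 12951969 and 21954929 reads were counted on genes per library. Serpina6 was lower in every KO library than in every WT library of its sex and age, with at most 131 CPM in KO livers against at least 420.7 CPM in WT livers. The hepatocyte markers Alb, Ttr, Apoa1, Tf, Fgb, Serpina1, Cps1 and Hnf4a summed to between 197900 and 286800 CPM in all 32 libraries, and the adipocyte markers to at most 29.36 CPM, with Plin1, Lep and Slc7a10 at 0 in 60-day females. Photoreceptor transcripts (1938 CPM summed over 9 markers) were found in replicate 1 of the 60-day KO females, so the Srebf1 result of that group is also given without it. CPM are library-size-scaled counts with TMM factors and are not divided by gene length, so levels are compared within a gene and not between genes. In bulk liver, fewer cells that express a gene and less RNA per cell cannot be told apart. Each fold change is given on the log2 scale with its SE, as edgeR's quasi-likelihood fit estimated it over 11002 genes, n = 4 rats per group throughout, and a gene was called at a Benjamini-Hochberg adjusted p below 0.05.

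Srebf1 was high in 60-day males of both genotypes and in 60-day KO females, and low in 60-day WT females. The 60-day KO females had 875.7, 1110, 945.7 and 910.7 CPM, against 623.3, 268.9, 264.5 and 351.8 CPM in 60-day WT females. Every KO female stood above every WT female, and the WT group was spread by 1 rat, replicate 1. Means were 961 ± 104 CPM in KO females and 377 ± 169 CPM in WT females (SD), a log2 fold change of 1.35 ± 0.21 (edgeR adjusted p = 0.000212; 95% interval 0.93 to 1.77). In 60-day males Srebf1 had 1167, 865.2, 1222 and 1243 CPM in KO rats and 909.5, 912.9, 940.5 and 1196 CPM in WT rats. The male groups overlapped, and the difference of 0.18 ± 0.20 did not pass the test (adjusted p = 0.804; 95% interval -0.23 to 0.60). At 30 days the values were 504.1, 753.5, 553.9 and 594.0 CPM in KO females against 362.2, 421.5, 585.9 and 513.4 CPM in WT females. They were 438.3, 365.5, 490.4 and 341.9 CPM in 30-day KO males against 329.0, 415.8, 452.6 and 439.7 CPM in 30-day WT males. Both 30-day pairs overlapped, with log2 fold changes of 0.35 ± 0.20 in females (adjusted p = 0.552) and -0.001 ± 0.203 in males (adjusted p = 1).

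**Figure D1:**
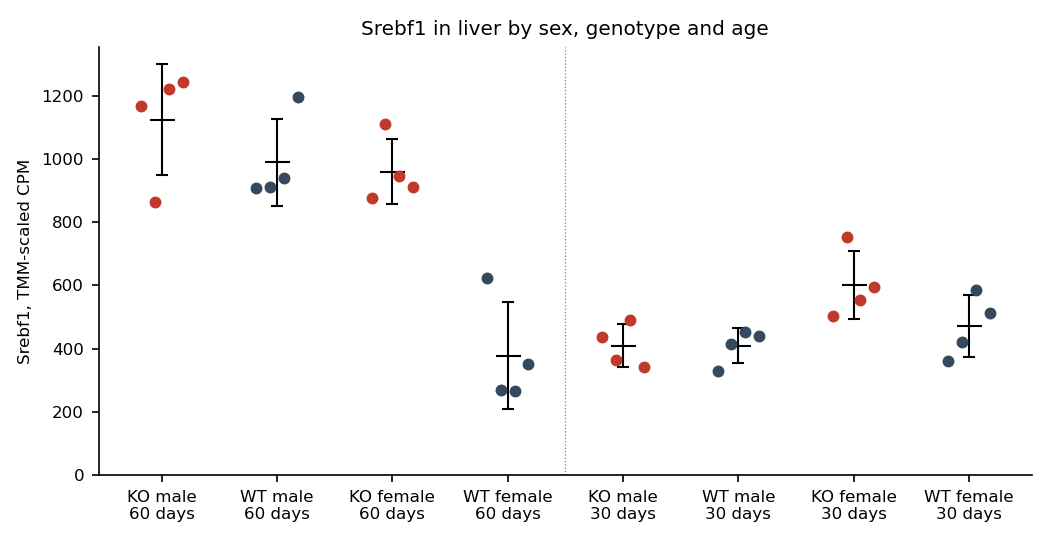
Srebf1 in TMM-scaled CPM (vertical axis, from 0) for each of the 32 rats, grouped by genotype, sex and age; bars are the mean ± SD of 4 rats. The 60-day WT females average 377 CPM, below the 961 to 1124 CPM means of the other 60-day groups and near the 30-day groups.

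Ordered by mean level, Srebf1 ran through 60-day KO males (1124 ± 176 CPM), 60-day WT males (989.8 ± 138), 60-day KO females (961 ± 104), 30-day KO females (601 ± 108), 30-day WT females (471 ± 98.8), 30-day WT males (409.3 ± 55.6), 30-day KO males (409.0 ± 68.0) and 60-day WT females (377 ± 169). Neighbours in this order overlapped, except that the lowest 60-day KO female lay above the highest 30-day KO female. A male excess was thus measured between 60-day WT rats, where males exceeded females by 1.39 ± 0.21 (edgeR adjusted p = 7.57e-06, no overlap). In KO rats the sex difference was 0.23 ± 0.20 (adjusted p = 0.50; 95% interval -0.19 to 0.64). The test of the difference itself, the KO effect in males minus that in females at 60 days, gave -1.17 ± 0.29 (95% interval -1.76 to -0.58; unadjusted p = 0.000386), which missed the threshold over all genes (adjusted p = 0.103). DESeq2 (adjusted p = 0.0162) and limma on the deposited log2 values (adjusted p = 0.0378) called it. So did edgeR without replicate 1 of the 60-day WT females (-1.52, adjusted p = 0.000453). The other alternative fits did not call it. With 1 library left out, edgeR gave -1.52 to -1.03, with an adjusted p of up to 0.2.

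The Srebf1 difference in 60-day females held in each of 8 fits that left out 1 library, with log2 fold changes of 1.21 to 1.70 and adjusted p of at most 0.00178. Without the library that held photoreceptor transcripts it was 1.39 ± 0.22 (adjusted p = 0.000658). A fit to the 8 libraries of this comparison alone gave 1.35 ± 0.27 and lost the call (adjusted p = 0.0817). One with all 16 libraries from 60-day rats kept it (adjusted p = 0.00641). A score of clock output genes was the mean log2 CPM of Dbp, Tef, Per2, Per3 and Nr1d1 minus that of Arntl, Clock and Npas2. This score also differed between the 60-day female groups: 0.60, 0.12, -1.18 and -0.81 in KO females, against -1.31, -2.41, -1.65 and -2.03 in WT females. All 4 KO females were above all 4 WT females on this score, so score and genotype cannot be told apart within these groups. Replicate 1 of the KO females, the library with photoreceptor transcripts, had the highest score and the lowest Srebf1 of its group. In 60-day WT males the score was -2.33 to -1.50, with Srebf1 at 909.5 to 1196 CPM. The hepatocyte marker sum was 252400 to 282700 CPM in KO females and 201000 to 286800 CPM in WT females, with 1 of its 8 genes called, Fgb (-0.33 ± 0.09, adjusted p = 0.0242). Of 4 cholangiocyte markers tested Epcam was higher (0.54 ± 0.12, adjusted p = 0.00437). The cholangiocyte sum was 16.8 to 20.5 CPM in KO females and 14.2 to 15.4 CPM in WT females. The sum of 7 stellate cell and fibroblast markers was 474.8 to 508.2 CPM in KO females and 309.5 to 463.8 CPM in WT females. Neither sum overlapped between the groups. The part of the markers in the Srebf1 result was not tested. With the score as a covariate the Srebf1 difference was 1.29 ± 0.28 (adjusted p = 0.0228), where 0.645% of all genes were called.

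Srebf1 was the 1 member of 10 called in KO against WT females at 60 days, where 6.77% of all genes tested were called, 3.48% higher and 3.29% lower. The other regulator, Mlxipl, had 221.8, 287.4, 232.3 and 246.7 CPM in KO females and 279.6, 242.5, 255.1 and 318.1 CPM in WT females, a difference of -0.15 ± 0.11 (adjusted p = 0.491). Of the 10 members 9 had a positive fold change and Mlxipl a negative one, and their median was 0.55, against 0.01 over all genes. That median moved with single libraries. Leaving out replicate 4 of the KO group gave 0.18, and leaving out replicate 1 or 3 of the WT group gave 0.91 or 0.35. It was 0.20 with the clock score as a covariate. With that covariate the fold changes were 0.09 for Acacb, 0.24 for Thrsp, 0.08 for Fasn, 0.16 for Acly, -0.25 for Acaca and 1.36 for Pnpla3. An unadjusted p below 0.05 was reached by 5 members, against 20.8% of all genes. DESeq2, which called 7.48% of all genes, called Pnpla3 beside Srebf1 (adjusted p = 0.0438).

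**Figure D2:**
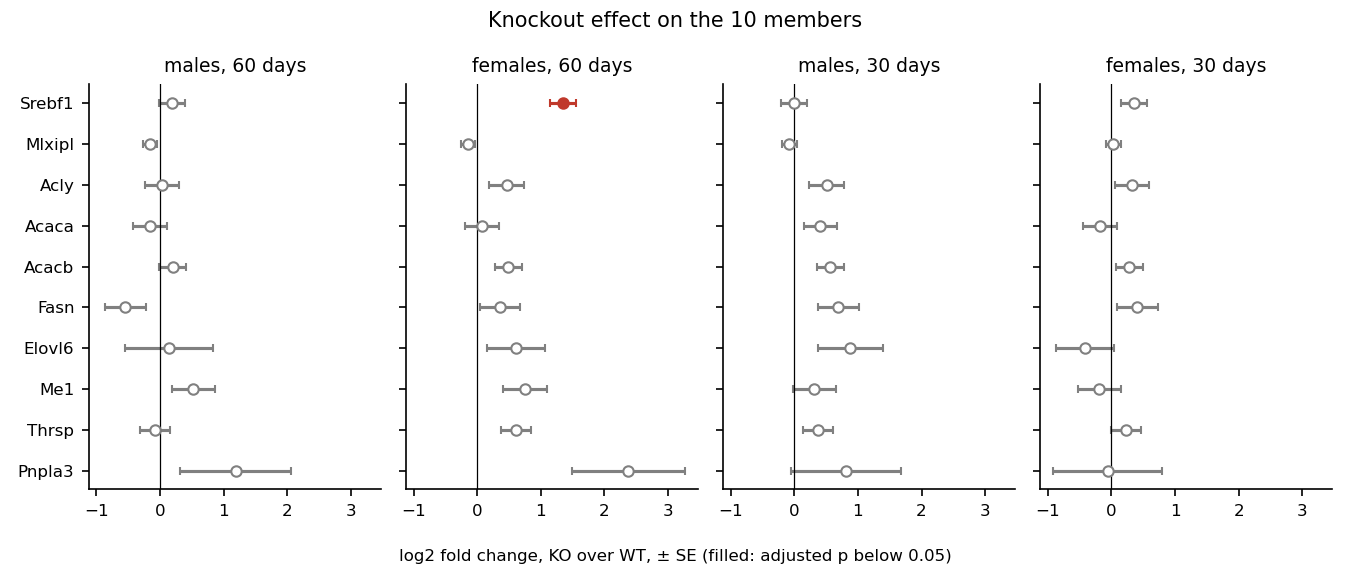
Log2 fold change of KO over WT ± SE (horizontal axis) for the 10 genes, 1 panel per sex and age; filled points passed an adjusted p below 0.05. Srebf1 in 60-day females, at 1.35, is the single filled point.

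Among the enzymes, 60-day females of both genotypes varied widely from rat to rat. Fasn had 1258, 1551, 815.3 and 2128 CPM in KO females, against 2050, 772.2, 651.1 and 1028 CPM in WT females (0.35 ± 0.32, adjusted p = 0.575). The highest WT rat, replicate 1, was about level with the highest KO rat, replicate 4, and the groups overlapped. Acly had 842.5, 796.8, 545.5 and 1265 CPM in KO females, against 1050, 480.8, 368.9 and 606.4 CPM in WT females (0.46 ± 0.27, adjusted p = 0.348). Acaca had 169.1, 132.1, 114.4 and 197.2 CPM in KO females, against 268.5, 93.2, 114.7 and 106.3 CPM in WT females (0.07 ± 0.26, adjusted p = 0.913). For both genes the same 2 rats were the highest of their groups. Acacb had 400.1, 336.6, 295.5 and 442.3 CPM in KO females, against 438.6, 156.6, 220.9 and 234.1 CPM in WT females (0.49 ± 0.21, adjusted p = 0.183). All 4 KO rats exceeded 3 of the 4 WT rats, and replicate 1 of the WT group lay among the KO rats. Me1 had 80.6, 50.8, 93.2 and 231.8 CPM in KO females, against 108.0, 43.2, 40.4 and 81.1 CPM in WT females (0.75 ± 0.34, adjusted p = 0.21). Elovl6 was close to the detection limit at 1.35, 2.45, 1.78 and 5.42 CPM in KO females, against 3.07, 1.61, 0.456 and 2.15 CPM in WT females, or 18 to 81 reads in KO and 7 to 39 in WT (0.61 ± 0.45, adjusted p = 0.475).

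For Thrsp and Pnpla3, too, replicate 4 was the highest KO female and replicate 1 the highest WT female. Thrsp had 1338, 1450, 1130 and 1805 CPM in 60-day KO females, against 1556, 735.8, 592.6 and 874.2 CPM in 60-day WT females (0.61 ± 0.24, adjusted p = 0.127). Pnpla3 had 626.0, 213.8, 99.2 and 1156 CPM in KO females, against 373.4, 4.77, 7.03 and 20.8 CPM in WT females (2.37 ± 0.89, adjusted p = 0.114). The 3 lowest WT females were below every other library of the series for Pnpla3, and replicate 1 of the same group was exceeded by 2 KO females alone. Replicate 1 of the 60-day WT females had the highest level of its group for 9 of the 10 members, all but Mlxipl, and replicate 4 of the 60-day KO females for 8 of the 10.

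**Figure D3:**
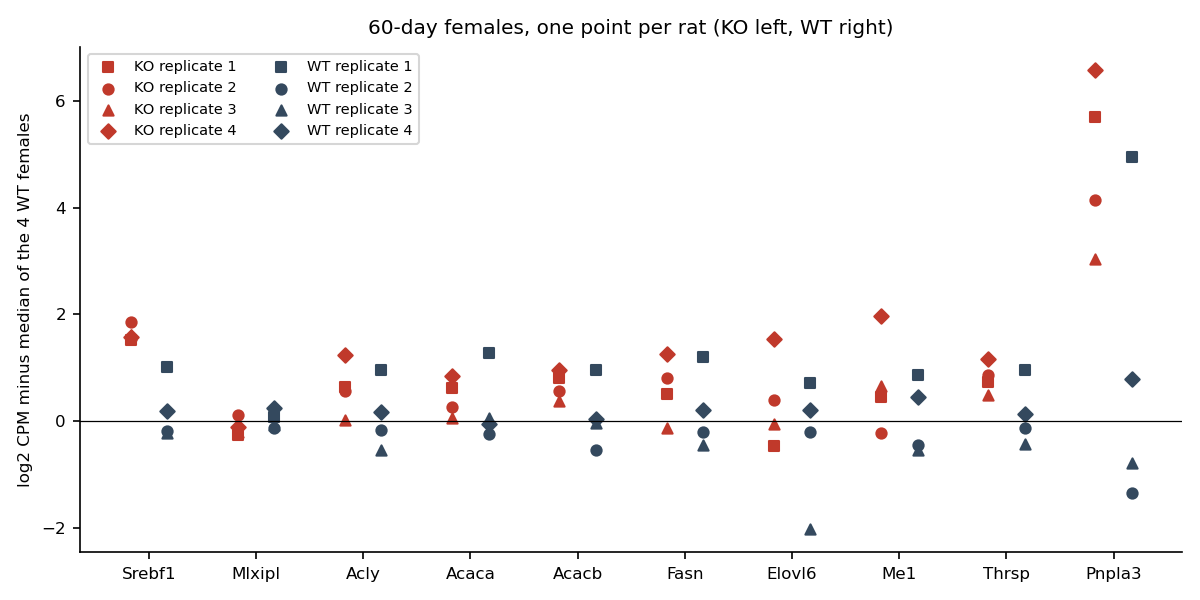
Log2 CPM of each 60-day female minus the median of the 4 WT females (vertical axis) for the 10 genes, KO left and WT right of each gene, with a marker shape for each replicate. Replicate 1 of the WT females (square) is the highest WT rat for 9 genes and stands far above the other WT rats for Pnpla3, at 373.4 CPM against 4.77 to 20.8 CPM.

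Without replicate 1 of the WT females, edgeR called 5 members higher in 60-day KO females, where 8.81% of all genes were called: Srebf1 (1.70 ± 0.18), Pnpla3 (5.60 ± 0.76, adjusted p = 3.56e-05), Thrsp (0.96 ± 0.21, adjusted p = 0.00467), Acacb (0.85 ± 0.18, adjusted p = 0.00272) and Acly (0.83 ± 0.26, adjusted p = 0.0424). Fasn (0.81 ± 0.30, adjusted p = 0.088), Me1 (1.06 ± 0.36, adjusted p = 0.0681), Acaca (0.55 ± 0.21, adjusted p = 0.11) and Elovl6 (0.98 ± 0.49, adjusted p = 0.227) did not pass the test in that fit. With any 1 of the other 7 libraries left out, Srebf1 alone was called, where 3.6% to 6.61% of all genes were. Without replicate 4 of the KO females the fold changes were 0.14 for Me1, 0.06 for Elovl6, 0.10 for Fasn, 0.22 for Acly, -0.07 for Acaca, 0.39 for Acacb, 0.47 for Thrsp and 1.63 for Pnpla3. No label sets this rat apart from its group, and it was kept in the values not given as without it.

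In 60-day males 0 of 10 members were called by edgeR, where 0.209% of all genes were, with 0 members at an unadjusted p below 0.05 (10.8% of all genes) and 0 called by DESeq2. Fasn had 652.5, 506.9, 847.1 and 643.4 CPM in KO males, against 1012, 1047, 605.7 and 1202 CPM in WT males (-0.55 ± 0.32, adjusted p = 0.566). The groups overlapped through 1 low WT rat, replicate 3, which was also the lowest of its group for Acaca, at 63.2 CPM. Pnpla3 had 93.1, 121.9, 184.6 and 93.2 CPM in KO males, against 40.5, 72.7, 46.8 and 57.0 CPM in WT males. Those groups did not overlap, and the fit gave 1.19 ± 0.87 (adjusted p = 0.68). This SE rests on the spread of Pnpla3 over all 8 groups and not on these males alone. The SD was 35% of the mean in 60-day KO males and 25.9% in WT males, against 91.3% in 60-day KO females and 179% in WT females. All 10 differences between the KO effect in males and in females at 60 days were negative, with a median of -0.45 against -0.015 over all genes. Of these 0 of 10 were called by edgeR, where 0.136% of all genes were (unadjusted p below 0.05 for 1 member, Srebf1, the 1 that DESeq2 called, and for 10.6% of all genes). The 10 genes were measured in the same rats, so their signs are not independent. Mlxipl was at -0.01 ± 0.16. With a library left out, the difference ranged from -0.094 to 0.073 for Mlxipl, -0.837 to 0.09 for Elovl6 and -0.536 to 0.384 for Me1.

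At 30 days 0 of 10 members were called in KO against WT females, where 0.3% of all genes were, with 0 at an unadjusted p below 0.05 (10.7% of all genes) and 0 by DESeq2. In 30-day males 0 of 10 were called, where 0.0545% of all genes were, with 2 at an unadjusted p below 0.05, Acacb and Fasn (5.94% of all genes), and 0 by DESeq2. Acacb had 125.5, 150.4, 173.0 and 158.0 CPM in KO males, against 100.6, 105.8, 86.6 and 117.0 CPM in WT males, which did not overlap (0.57 ± 0.21, adjusted p = 0.657). Fasn had 913.7, 1185, 1193 and 644.2 CPM in KO males, against 503.7, 739.2, 650.8 and 542.9 CPM in WT males, which overlapped (0.69 ± 0.32, adjusted p = 0.829). Acaca was at 138.6 to 172.7 CPM in KO males and 95.8 to 128.4 CPM in WT males, without overlap (0.41 ± 0.26, adjusted p = 0.898). In 30-day males 8 of the 10 fold changes were positive, with a median of 0.46 against 0.004 over all genes. In 30-day females 6 of 10 were positive, with a median of 0.14 against 0.01 over all genes.

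The 2 ages differed in several members, against a high background. Reads on genes numbered 16806943 to 21954929 per library at 30 days and 12951969 to 17133332 at 60 days, and the sample titles differ in form. The sum of stellate cell and fibroblast markers was 902.7 to 1511 CPM at 30 days and 309.5 to 670.3 CPM at 60 days. Age and any difference in processing or cell make-up cannot be told apart here. In KO females 4 members were higher at 60 than at 30 days and 1 lower, where 22.7% of all genes were called, 10.6% higher and 12.1% lower. Srebf1 (0.68 ± 0.20, adjusted p = 0.0163), Acacb (1.09 ± 0.22, adjusted p = 0.000416), Thrsp (1.15 ± 0.24, adjusted p = 0.000739) and Pnpla3 (2.92 ± 0.91, adjusted p = 0.0212) rose, and Mlxipl fell (-0.44 ± 0.11, adjusted p = 0.00422). In WT females 2 rose and 1 fell, where 33.1% of all genes were called, 16% higher and 17.1% lower. Acacb (0.89 ± 0.22, adjusted p = 0.0021) and Thrsp (0.78 ± 0.24, adjusted p = 0.0122) rose and Me1 fell (-0.90 ± 0.34, adjusted p = 0.0457). Srebf1 was at -0.32 ± 0.20 (adjusted p = 0.238). In KO males Srebf1 rose (1.46 ± 0.21, adjusted p = 4.01e-06) and Mlxipl fell (-0.40 ± 0.11, adjusted p = 0.00822), where 28.4% of all genes were called, 14% higher and 14.5% lower. In WT males Srebf1 (1.27 ± 0.21, adjusted p = 2.46e-05), Acacb (0.93 ± 0.22, adjusted p = 0.00158) and Thrsp (0.65 ± 0.24, adjusted p = 0.0361) rose and Mlxipl fell (-0.31 ± 0.11, adjusted p = 0.0334), where 31.5% were called, 15.7% higher and 15.8% lower.

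Acacb, the mitochondrial carboxylase, had its 2 highest group means at 60 days in females, 369 ± 65.3 CPM in KO and 263 ± 122 CPM in WT, against 173 ± 14.2 CPM in KO and 142 ± 31.9 CPM in WT females at 30 days. Mlxipl averaged 227 to 273.8 CPM in the 4 groups at 60 days and 298.9 to 336.0 CPM in the 4 groups at 30 days. The difference of the KO effect on Srebf1 between the ages, 60 minus 30 days in females, was 1.00 ± 0.29 (95% interval 0.41 to 1.59; unadjusted p = 0.0018; adjusted p = 0.0542). In this test 0 of 10 members were called by edgeR, where 2.96% of all genes were. Of the 10 members, Srebf1 alone was at an unadjusted p below 0.05 (17.6% of all genes), and DESeq2 called it (adjusted p = 0.0169). So did limma on the deposited log2 values (adjusted p = 0.0236) and edgeR with upper-quartile scaling (0.0406). EdgeR also called it without replicate 2 of the 30-day KO females (0.037) or replicate 1 of the 30-day WT females (0.0493). With 1 library left out, edgeR gave 0.86 to 1.35 for Srebf1, with an adjusted p of up to 0.12. In males the age difference of the KO effect had 0 of 10 called, where 0.00909% of all genes were, with 1 at an unadjusted p below 0.05, Fasn (-1.24 ± 0.45, adjusted p = 0.784; 5.34% of all genes were below 0.05), and 0 by DESeq2. At 30 days the KO effect in males minus that in females had 0 of 10 called (0% of all genes), 0 at an unadjusted p below 0.05 (5.51% of all genes) and 0 by DESeq2.

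Several of these age calls were lost when any 1 of several libraries was left out. In KO females the adjusted p of Srebf1 was 0.057 without replicate 1 at 30 days and 0.0531 without replicate 2 at 60 days. That of Pnpla3 was 0.0526 to 0.0906 without replicate 1, 2 or 3 at 30 days or replicate 4 at 60 days. In WT females Me1 lost its call without replicate 1, 2 or 3 at 30 days or replicate 2, 3 or 4 at 60 days (adjusted p 0.0518 to 0.143). Thrsp lost it without replicate 1 or 2 at 30 days or replicate 1 at 60 days (0.0504 to 0.126). In WT males Thrsp lost it without replicate 1, 3 or 4 at 30 days or replicate 1 or 4 at 60 days (0.0501 to 0.115). Mlxipl lost it without replicate 1 or 4 at 30 days or replicate 1 or 3 at 60 days (0.082 to 0.143). Without replicate 1 of the 60-day WT females, Srebf1 (-0.67, adjusted p = 0.00295) and Pnpla3 (-2.74, adjusted p = 0.00306) were both called lower at 60 than at 30 days in WT females. In that fit the Srebf1 difference of the KO effect between the ages was called (1.35, adjusted p = 0.000734).

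**Figure D4:**
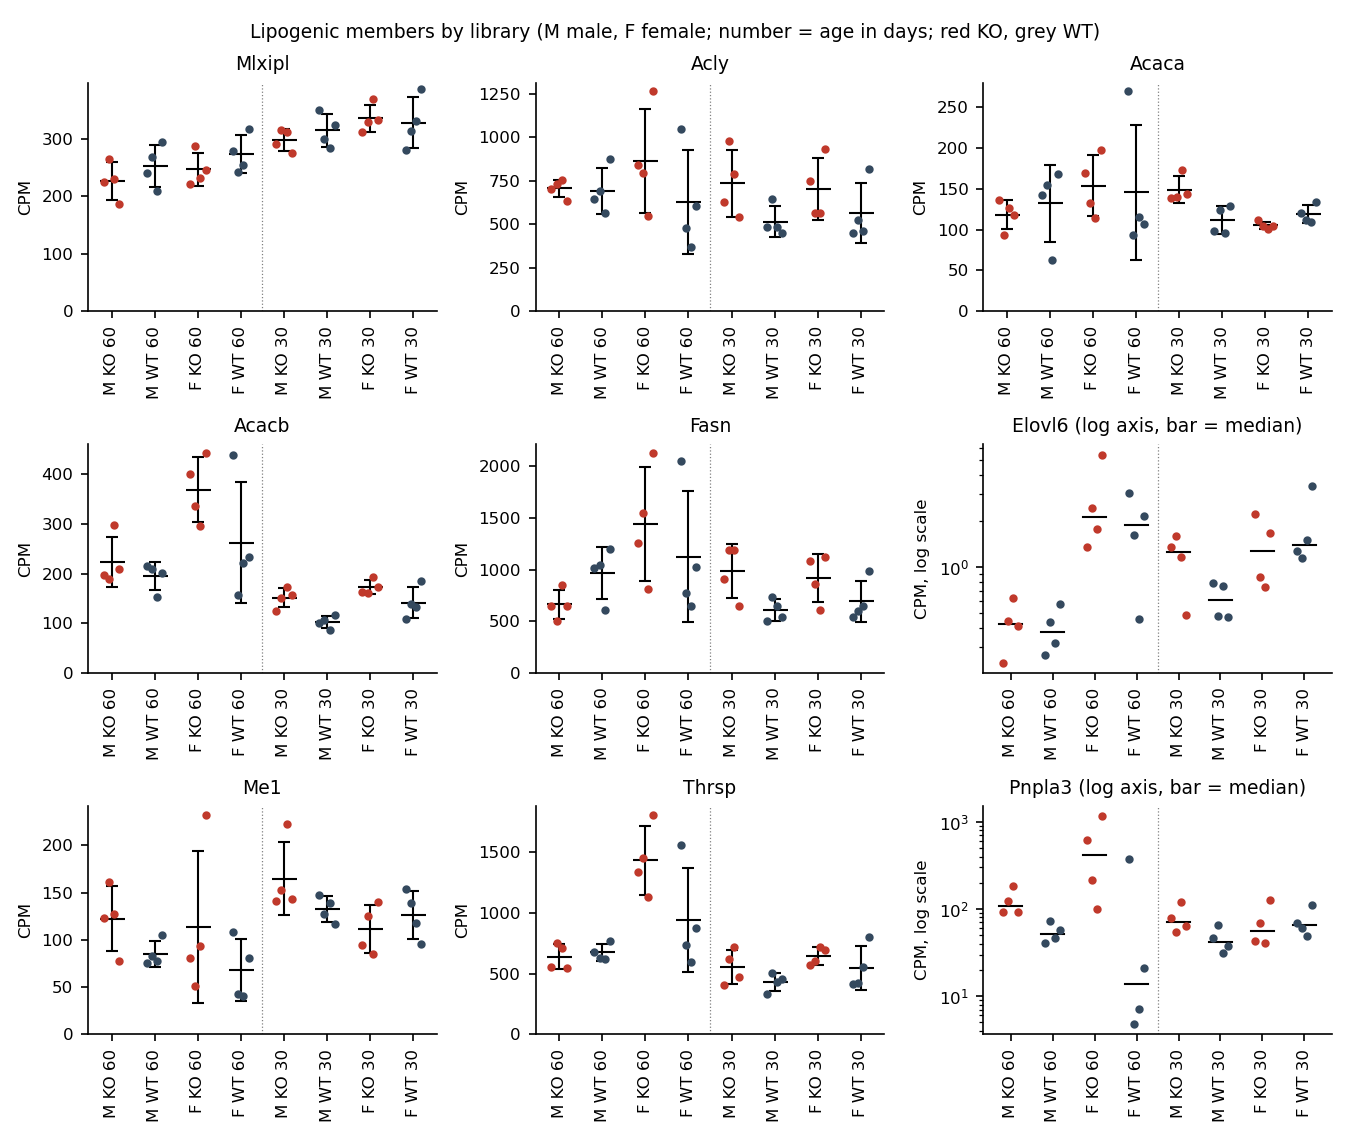
CPM of the other 9 genes for each rat, groups ordered as in the plot of Srebf1 (M male, F female, age in days; red KO, grey WT); bars are the mean ± SD of 4 rats, or the median on the log axes of Elovl6 and Pnpla3. Thrsp and Acacb are highest in 60-day females, at means of 1431 and 369 CPM in KO, and Elovl6 is lowest in 60-day males.

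Between the sexes at 60 days, Thrsp, Fasn, Acacb and Elovl6 were lower in KO males than in KO females, 4 of 10 members where 18.5% of all genes were called, 9.63% higher and 8.89% lower in males. Thrsp had 552.8, 752.0, 707.8 and 550.4 CPM in KO males, against 1338, 1450, 1130 and 1805 CPM in KO females, with no overlap (-1.16 ± 0.24, adjusted p = 0.000705). Fasn was at 506.9 to 847.1 CPM in KO males and 815.3 to 2128 CPM in KO females (-1.12 ± 0.32, adjusted p = 0.0137). Acacb was at 189.0 to 298.5 CPM in KO males and 295.5 to 442.3 CPM in KO females (-0.72 ± 0.21, adjusted p = 0.0171), an overlap of 1 rat on each side. The calls of Fasn and Acacb were lost without replicate 4 of the KO females (adjusted p = 0.0675 and 0.0597), and that of Acacb also without replicate 1 or 2 of the KO males (0.058 and 0.0589). Fitting only the 16 libraries from 60-day rats lost both as well (0.06 and 0.0819).

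Elovl6, the palmitate elongase, was at 0.237 to 0.629 CPM in 60-day KO males and 1.35 to 5.42 CPM in 60-day KO females (-2.64 ± 0.55, adjusted p = 0.00067), with no overlap. It was at 0.265 to 0.576 CPM in 60-day WT males and 0.456 to 3.07 CPM in 60-day WT females (-2.18 ± 0.57, adjusted p = 0.00455), on 4 to 7 reads per WT male. Srebf1, higher in males, and Elovl6 were the 2 of 10 members called between 60-day WT males and females, where 26.4% of all genes were called, 13.7% higher and 12.7% lower in males. For Pnpla3 the sex difference in 60-day WT rats was -0.90 ± 0.87 (adjusted p = 0.488), and 2.33 (adjusted p = 0.0114) without replicate 1 of the WT females. At 30 days 0 of 10 members were called between KO males and KO females (2.24% of all genes) or between WT males and WT females (2.07%) by edgeR, with 1 and 2 members at an unadjusted p below 0.05, against 13.2% and 12.9% of all genes, and 0 and 0 by DESeq2. In KO rats this was Srebf1, lower in males without overlap (-0.56 ± 0.20, edgeR adjusted p = 0.18). In WT rats these were Elovl6, lower in males without overlap (-1.54 ± 0.49, edgeR adjusted p = 0.114), and Acacb, lower with overlap (-0.468 ± 0.215, 0.348). Acaca (0.50 ± 0.26, edgeR adjusted p = 0.431) and Me1 (0.57 ± 0.34, 0.52) were higher in 30-day KO males than in KO females, also without overlap. The edgeR fit to the 16 libraries of that age called Acaca (0.50 ± 0.10, adjusted p = 0.00919).

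Of the genes listed around the pathway few were called in 60-day KO females, where 3.48% of all genes were called higher and 3.29% lower. Of 18 tested genes of SREBP processing and upstream regulation, 0 were higher and 1 lower, with 16 of 18 fold changes negative and a median of -0.095. The 1 was Srebf2, which encodes SREBP-2, the regulator of cholesterol synthesis, at 113 ± 8.97 CPM in KO females and 149 ± 15.3 CPM in WT females (-0.40 ± 0.09, adjusted p = 0.00914). Insig1 and Insig2, which hold SREBP precursors in the endoplasmic reticulum, were at -0.48 ± 0.33 (adjusted p = 0.435) and -0.25 ± 0.14 (adjusted p = 0.334). Nr1h3, the liver X receptor alpha, was at 0.13 ± 0.07 (adjusted p = 0.305). Of 14 genes that supply carbon and NADPH, 0 were higher and 1 lower, Acss2, which makes acetyl-CoA from acetate, at 120 ± 29.8 CPM in KO females and 221 ± 67.5 CPM in WT females (-0.88 ± 0.20, adjusted p = 0.00911).

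Of 10 genes of desaturation and elongation, 0 were higher and 1 lower, Hsd17b12, the ketoacyl reductase of the elongation cycle, at 68.9 ± 6.60 CPM in KO females and 108 ± 13.4 CPM in WT females (-0.65 ± 0.09, adjusted p = 1.68e-05). Scd1, the stearoyl-CoA desaturase, ranged from 1094 to 3729 CPM in KO females and from 577.4 to 6736 CPM in WT females (-0.09 ± 0.53, adjusted p = 0.949), and was called higher without replicate 1 of the WT females (1.30, adjusted p = 0.0459). Of 18 genes of triglyceride synthesis and lipid droplets, 0 were higher and 1 lower, the lipase Lipe, at 5.65 ± 0.722 CPM in KO females and 10.1 ± 2.47 CPM in WT females (-0.83 ± 0.18, adjusted p = 0.00603). Of 14 clock genes 4 were higher and 1 lower: Per3 (1.80 ± 0.31), Per2 (1.60 ± 0.28), Tef (0.94 ± 0.18) and Dbp (2.27 ± 0.45), adjusted p 0.000696 to 0.0026, and Npas2 (-0.54 ± 0.15, adjusted p = 0.0299). Dbp was at 1.45 (adjusted p = 0.0187) without replicate 1 of the KO females. With the clock score as a covariate, the SEs were larger and the calls of Srebf2 (-0.29 ± 0.13, adjusted p = 0.361), Acss2 (-0.82 ± 0.29, 0.213) and Lipe (-0.66 ± 0.27, 0.286) were lost. Hsd17b12 kept its own (-0.47 ± 0.11, 0.0432). The fit to the 8 libraries compared, in which 0.546% of all genes were called, gave -0.39 for Srebf2, -0.88 for Acss2 and -0.83 for Lipe. It lost the calls of Srebf2 (adjusted p = 0.105), Acss2 (0.129), Lipe (0.0799), Per3 (0.104), Per2 (0.0756), Tef (0.202), Dbp (0.224) and Npas2 (0.0858) and kept that of Hsd17b12 (0.0238). Dbp also lost its call in the fit to 16 libraries (0.0506). Acss2 also lost it without replicate 4 of the WT females (0.0593), and Npas2 in 6 of the 8 fits that left out 1 library.

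In the other 3 KO contrasts 1 gene of these lists was called, Cidec, a lipid droplet protein, higher in 30-day KO females (0.37 ± 0.08, adjusted p = 0.0376), a call lost in 7 of the 8 fits that left out 1 library (adjusted p 0.0743 to 0.189 in those) and with the number in the 30-day titles as a covariate (0.137). In those contrasts Srebf2 ranged from -0.16 to 0.21, Insig1 from -0.21 to 0.58, Insig2 from -0.12 to 0.02, Nr1h3 from -0.04 to 0.13 and Scd1 from -0.71 to 0.25, none past the threshold.

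Within groups, Srebf1 was compared with the other members rat by rat. The log2 CPM of each rat minus its group mean, over 32 libraries, gave positive correlations for all 45 pairs of members, from 0.18 to 0.90 with a median of 0.54. These values share library size and scaling. The share of positive pairs over all genes was not computed, and the 45 values were not recomputed without outlying rats. Of the 9 pairs with Srebf1, Fasn passed the adjusted threshold (Pearson r = 0.61, permutation p = 0.00436, adjusted p = 0.0392; Spearman rho = 0.54, adjusted p = 0.0596). Thrsp (r = 0.59, adjusted p = 0.0794), Pnpla3 (0.56, 0.11), Acacb (0.54, 0.11) and Acaca (0.52, 0.11) followed by r in that permutation test. Mlxipl (0.21, 0.365) and Me1 (0.23, 0.391) were the weakest. Without the 2 rats farthest from the median of Srebf1, replicates 1 and 3 of the 60-day WT females, r with Fasn was 0.42. Without the 60-day WT females it was 0.38 (adjusted p = 0.603), so its size rests on that group. The same 2 rats left out gave 0.35 for Thrsp, 0.31 for Acacb, 0.27 for Acaca, 0.20 for Pnpla3, 0.20 for Mlxipl, 0.12 for Acly, 0.10 for Elovl6 and -0.05 for Me1. The call of Fasn was also lost without the 30-day WT females, 30-day KO males, 30-day WT males or 60-day WT males (r 0.61 to 0.63, adjusted p 0.0625 to 0.072). The pairs past the threshold numbered 0 to 4 when 1 group was left out.

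**Figure D5:**
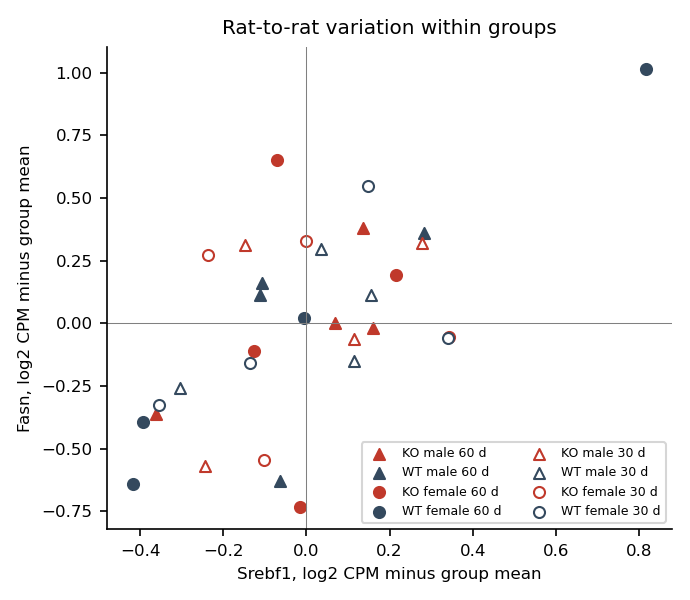
Log2 CPM minus the group mean for Srebf1 (horizontal) and Fasn (vertical), 1 point per rat, 32 rats; red KO, grey WT, triangles males, circles females, filled 60 days, open 30 days. The WT female at the upper right is replicate 1 of the 60-day group, and r is 0.61 with and 0.42 without the 2 rats farthest out.

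By the same measure, the genes most like Srebf1 among 11001 were Ptprk, a receptor tyrosine phosphatase (r = 0.77), RGD1565367 (0.70), Clcn4, a chloride-proton exchanger (0.70), Ttc7a (0.69) and Mapk9, the kinase JNK2 (0.68). The most opposite were Cyp2d5, a monooxygenase (-0.71), Lcn2, a lipocalin (-0.71), Msl3 (-0.70), Rab30 (-0.69) and Piezo1, a mechanosensitive channel (-0.67). Fasn ranked 30, Thrsp 40, Pnpla3 54 and Acacb 82 in this order, and Mlxipl 2099. The genes most like and most opposite to Srebf1 were picked as the extremes of 11001. Without the rats farthest from the median of Srebf1, left out above, r was 0.489 (Clcn4) to 0.691 (Ptprk) for the most like. For the most opposite it was -0.632 (Msl3) to -0.468 (Lcn2). Spearman's rho of Lcn2, with all rats kept, was -0.419. RGD1565367 and Lcn2 had low mean levels, at 0.71 and 2.95 CPM.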

How the data were processed

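Messenger RNA of 32 rat livers was measured. The labels describe Trizol extraction and a stranded mRNA library kit. STAR, Cufflinks, limma and the build Rnor_5.0 are named per the submitters' processing notes, which leave out roles and versions. Deposited by the authors were raw counts of reads per gene (17327 genes and 2 lines for unassigned reads, 18.05% to 21.18% of reads on no feature and 0.262% to 0.648% ambiguous, left out here) and log2 CPM of 11344 genes, which matched values recomputed from the counts to 5e-09 and carry no scaling between libraries. Alignment and strand of counting were not examined, so reads of overlapping or antisense genes could not be parted.

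Groups followed the labels; replicate numbers follow sample order. The labels give 4 rats per group. Counts were fitted with edgeR 4.0.16 in R 4.3.3 (filterByExpr with minimum count 10, TMM, robust quasi-likelihood, 8 group means, 24 residual degrees of freedom), and adjusted over 11002 genes in each of 16 contrasts. Levels are TMM-scaled CPM, with a prior count of 2 for log2 values in correlations, which were tested by 100000 permutations within groups, two-sided. The fit was tested on simulated data. Alternatives were DESeq2 1.42.0, limma 3.58.1 on the deposited log2 values, other scalings, no filter, smaller fits, a clock-score covariate (Ciart, meant for that score, missed the filter), the number in the 30-day titles as a covariate (its meaning is not labelled; 2 in 4 of 4 KO females, 1 in 3 and 2 in 1 of the WT females, 1 in 3 and 2 in 1 of the KO males, 2 of each in WT males), and leaving out each library. The members and gene lists were chosen with earlier results of these data known. Named genes are all members, up to 4 called genes per list with the smallest adjusted p in each KO contrast, Srebf2, Nr1h3, Insig1, Insig2 and Scd1 (1 further gene of that rule is not reported here), and the 5 genes most and least like Srebf1. Promoter windows came from RefSeq (GRCr8), another assembly than the counts used.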

Additional observations from a re-analysis of the deposited data

Results flagged for a closer look

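In 80 groups of 4 rats (10 genes in 8 groups), 6 held a rat whose gap to the nearest of the other 3, as a share of the group's range, was past Dixon's 95% critical value; chance alone flags about 1 in 20. Replicate 1 of the 60-day WT females was apart for Acaca, at 268.5 CPM with the next rat at 114.7, and for Pnpla3, at 373.4 CPM with the next at 20.83. Replicate 3 of the 30-day KO males was apart for Acaca, at 172.7 CPM with the next at 143.3, and for Me1, at 222.4 CPM with the next at 152.5. Replicate 4 of the 60-day WT males was apart for Srebf1, at 1196 CPM with the next at 940.5, and replicate 4 of the 30-day WT females for Elovl6, at 3.412 CPM with the next at 1.501.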

How the results depend on the processing

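Of 3140 recomputed fold changes of single genes, 2934 kept their direction and side of the threshold, 70 lost a call, 37 gained one, 96 changed sign with no call on either side, and 3 changed sign with a call in the alternative, all without replicate 1 of the 60-day WT females: Pnpla3 at 60 against 30 days in WT females (-2.744, range -2.744 to 0.89 with a library left out), Pnpla3 in 60-day WT males against females (2.334, range -1.3 to 2.334) and Scd1 in 60-day KO against WT females (1.3, range -0.473 to 1.3). The cause was not tested. The r of Srebf1 with Me1 became -0.155 without the 60-day WT females.

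The number of members called in 60-day KO against WT females, 1, was 2 by DESeq2 (7.48% of all genes called), 3 by limma on the deposited log2 values (6.23%), 0 in the fit to 8 libraries (0.546%) and 1 to 5 with a library left out (3.6% to 8.81%). Fits to the 16 libraries of an age gave 1 in 30-day (Acaca, higher in males; 3.68% of all genes) and 2 in 60-day KO males against females (13.5%), the second also 2 to 4 with a library left out. By limma, 60 against 30 days gave 5 in WT females (34% of all genes) and 4 in KO males (38.7%); leaving out a library gave 3 to 5 in KO females, 1 to 4 in WT females and 2 to 4 in WT males. For the sex-by-genotype test at 60 days DESeq2 (0.708% of all genes) and limma (0.167%) gave 1 each and leaving out a library 0 to 2. For the age-by-genotype test in females upper-quartile scaling (2.92%) and DESeq2 (4.84%) gave 1 each, limma 2 (3.13%) and leaving out a library 0 to 2. Pairs with Srebf1 past the threshold, 1, were 0 by Spearman's rho and without the 30-day WT females, 60-day WT females, 30-day KO males, 30-day WT males or 60-day WT males, 4 without the 60-day KO females and 2 without the 60-day KO males. Unscaled, the deposited log2 values shift the median of all genes by -0.214 to -0.116 between ages. No paired analysis was possible because replicate numbers follow sample order and no label ties rats to each other. Elovl6 had 3 to 81 reads per library, so its fold changes rest on few reads. The cause of its low counts was not tested.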
